A study of Saccharomyces cerevisiae with 9 samples.

Results

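The genes described here are the 7 yeast genes that hold iron-loaded siderophores at the cell wall and carry them into the cell. FIT1 (YDR534C), FIT2 (YOR382W) and FIT3 (YOR383C) encode cell wall mannoproteins, and ARN1 (YHL040C), ARN2 (YHL047C), SIT1 (YEL065W) and ENB1 (YOL158C) encode siderophore transporters. They were picked by name from a table of 7126 genic regions, after results of the same libraries were known, and one of the reasons was the level of FIT3 in both mutants. Differences between strains are therefore given as a description of these libraries, with no P value of a member as support. All 7 genes had enough signal to be tested in every comparison.

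Poly-A RNA was sequenced from 3 diploid strains of Saccharomyces cerevisiae in the W303 background, with 3 libraries per strain. Wildtype was grown in synthetic complete medium (SC). In sam1Δ/sam1Δ both copies of SAM1 were replaced by KANMX and the medium was SC with G418, and in sam2Δ/sam2Δ both copies of SAM2 were replaced by LEU2 and the medium was SC without leucine. SAM1 and SAM2 encode the enzymes that make S-adenosylmethionine. All cultures grew at 30 °C to mid-exponential phase. All strains carried leu2-3, his3-Δ200, trp1-Δ1, ura3-52, can1-100/CAN1 and ade2-101 and were heterozygous at LYS2. They also carried an extra chromosome fragment with SUP11 and TRP1, in more than 1 copy. Each genotype is represented by 1 strain number, so strain, marker, medium and isolate change together and cannot be told apart. The deleted genes fitted the labels: SAM1 had a signal of 1.06, 1.77 and 0 in the sam1Δ/sam1Δ libraries and a mean of 9253 in wildtype, and SAM2 had 2.43, 4.36 and 6.89 in the sam2Δ/sam2Δ libraries and a mean of 25439 in wildtype.

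Yeast makes no siderophores, the small iron chelators that other microbes secrete, but it can use those it meets. The mannoproteins Fit1, Fit2 and Fit3 keep siderophore-bound iron in the wall near the plasma membrane. Transporters of the Arn family then take up the intact complex: Arn1 is known for ferrichromes, Arn2 for triacetylfusarinine C, Sit1 for ferrioxamine B and Enb1 for enterobactin. Alongside runs a reductive route, in which Fre reductases free the iron at the surface and the Fet3 oxidase with the Ftr1 permease imports it. Both routes are switched on in low iron by the transcription factors Aft1 and Aft2, which bind short sites with the core CACCC upstream of their targets.

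Values are called signal here: estimated reads per gene divided by a factor of the library. Library totals ran from 9.38 to 11.9 M units of signal, and 1 read was worth 0.443 to 2.18 units, so that the libraries held about 4.90 to 23.8 M reads. FIT1 rested on 37 to 112 estimated reads per library, ENB1 on 62.0 to 440.0 and FIT2 on 158 to 9645. A level in a culture cannot tell more RNA per cell from more cells that express the gene. Wildtype replicate 1 stood apart from the other wildtype libraries on the first component of variation over the transcriptome.

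The 7 genes lie near chromosome ends in the R64 assembly, and each has 1 coding exon. FIT2 (chromosome XV, 1059531 to 1059992, plus strand) and FIT3 (chromosome XV, 1060441 to 1061055, minus strand) face each other across 448 bases, 31.3 and 30.2 kb from the right end. FIT1 (chromosome IV, 1503314 to 1504900, minus strand) is 27.0 kb from the right end. The transporter genes are all near left ends: ARN2 (chromosome VIII, 8351 to 10213, minus strand) at 8.35 kb, ARN1 (chromosome VIII, 19088 to 20971, minus strand) at 19.1 kb, ENB1 (chromosome XV, 19491 to 21311, minus strand) at 19.5 kb and SIT1 (chromosome V, 27657 to 29543, plus strand) at 27.7 kb. Of 6002 protein-coding genes, 409 (6.81%) lie within 31.3 kb of an end, and the median distance is 206 kb. In the deposited table ARN2 ends at 10307 and shares its locus with YHL046W-A on the opposite strand, which had 14.9 to 19.7% of the signal of ARN2, so part of its value depends on how reads were split.

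All 7 genes also have at least 1 copy of TGCACCC, a form of the Aft1 and Aft2 site, in the 500 bases before the start codon. That word was found on either strand in 140 of the 6002 windows of the same kind (2.33%). Counting the forms TGCACCC (searched first), CGCACCC (found in FIT1 and FIT3), TACACCC (not found) and CACACCC (not found) together, with the core CACCC inside each of them, the 7 genes held 15 matches, 4 in FIT2, 3 each in FIT1 and FIT3, 2 in ENB1 and 1 in each of the others. At least 1 of these forms was in 8.78% of all windows, at least 2 were in 0.933%, and CACCC alone was in 33.5%. In the shorter window from 250 bases before to 50 bases after the start codon, 5 of the 7 genes held TGCACCC against 1.3% of all genes, any of the 4 forms was in the same 5 genes against 5.06%, and ARN1 and ARN2 had neither these forms nor the core there. The longer window was chosen after the shorter one had been looked at. A match is a description of the letters and not evidence of binding.

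The stretches of FIT1 and FIT3 from 300 to 171 bases before the start codon are shown because they carry the same 3 words in the same order, although the genes differ in their signal. Both are from the RefSeq sequence of R64, written 5′ to 3′ on the gene's strand (minus), at IV:1505071-1505200 for FIT1 and XV:1061226-1061355 for FIT3. Capitals mark the 7-letter matches, and GGGTGCA is TGCACCC on the other strand.
FIT1: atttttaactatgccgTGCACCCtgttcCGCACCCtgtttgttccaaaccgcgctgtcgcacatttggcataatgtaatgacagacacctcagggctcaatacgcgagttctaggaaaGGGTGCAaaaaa
FIT3: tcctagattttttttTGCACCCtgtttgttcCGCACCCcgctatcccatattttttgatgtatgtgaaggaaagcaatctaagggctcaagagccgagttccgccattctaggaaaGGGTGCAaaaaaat
The first bases of the 3 words stand 284, 272 and 182 bases before the start codon in FIT1 and 285, 269 and 184 in FIT3. The stretches were identical at 74.4% of 117 aligned bases. Over 500 bases the identity of FIT1 and FIT3 was 64.0%, and that of the other pairs among the 7 genes was 50.2 to 59.7%.

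For the other 5 genes 1 match each is shown with 12 bases on either side, to let the flanks be compared. All are from RefSeq R64, 5′ to 3′ on the strand that reads TGCACCC, at XV:1059270-1059300 (plus) for FIT2, VIII:21213-21243 (minus) for ARN1, VIII:10642-10672 (plus) for ARN2, V:27457-27487 (minus) for SIT1 and XV:21430-21460 (minus) for ENB1, with the match in capitals.
FIT2: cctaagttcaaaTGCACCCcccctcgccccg
ARN1: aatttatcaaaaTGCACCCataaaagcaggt
ARN2: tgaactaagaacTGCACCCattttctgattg
SIT1: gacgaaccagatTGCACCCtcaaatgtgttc
ENB1: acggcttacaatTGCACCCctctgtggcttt
They stand 249, 260, 447, 188 and 137 bases before the start codon in the order printed. The word is on the gene's strand in FIT2, ARN1 and ENB1 and on the opposite strand in ARN2 and SIT1. FIT2 has a second match on its own strand 17 bases further from the gene, at 266, and it is the gene with the most matches.

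**Figure D1:**
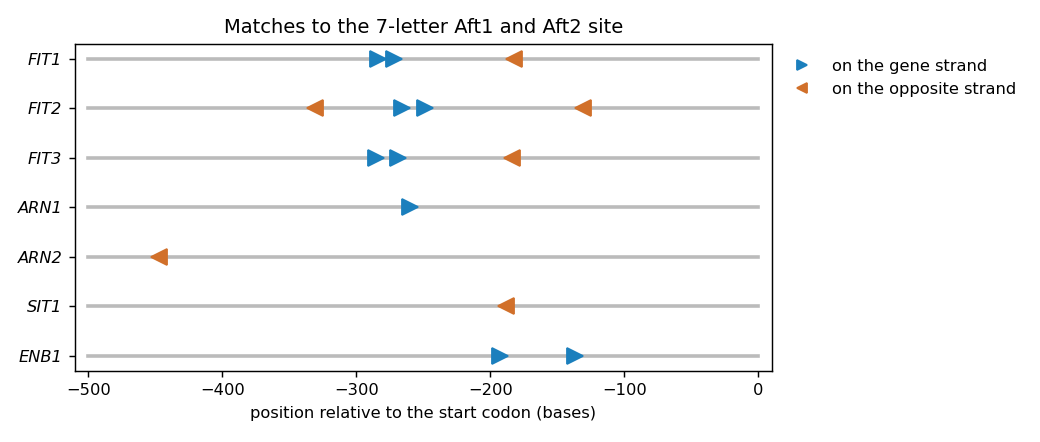
Matches to the 4 forms of the Aft1 and Aft2 site, each 7 letters long, in the 500 bases before the start codon of each of the 7 genes. The x axis is the distance from the start codon in bases, blue triangles are matches on the gene's strand and orange triangles matches on the opposite strand. FIT2 holds 4, FIT1 and FIT3 hold 3 each at like positions, and ARN1, ARN2 and SIT1 hold 1 each.

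Of the mannoprotein genes, FIT2 had the highest signal and varied the most. Wildtype replicates 1 to 3 had a signal of 1270, 948 and 367 (862 ± 457, mean ± SD, n = 3, as for all values after ±). In sam1Δ/sam1Δ it was 1854, 4273 and 4679 (3602 ± 1527). In sam2Δ/sam2Δ it was 464, 344 and 1309 (706 ± 526). Each sam1Δ/sam1Δ library was above every wildtype and every sam2Δ/sam2Δ library, while the latter 2 strains overlapped.

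FIT3, the neighbour of FIT2, was at 667, 490 and 400 in wildtype (519 ± 136). It reached 781, 1258 and 1214 in sam1Δ/sam1Δ (1084 ± 264). In sam2Δ/sam2Δ it was at 322, 290 and 411 (341 ± 63.0). The sam1Δ/sam1Δ libraries again lay above all others, and sam2Δ/sam2Δ replicate 3 lay above wildtype replicate 3, so those groups overlapped.

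FIT1, the longest of the 3 mannoprotein genes and alone on chromosome IV, had the lowest signal and another order. It was at 28.6, 69.1 and 62.7 in wildtype (53.5 ± 21.8). In sam1Δ/sam1Δ it was at 80.8, 49.6 and 42.1 (57.5 ± 20.5). In sam2Δ/sam2Δ it was at 59.5, 80.6 and 53.6 (64.5 ± 14.2). No pair of strains was apart, and in each strain the library highest in FIT2 was the one lowest in FIT1. FIT1 and FIT3 share 70.6% of 595 aligned coding bases, with a longest common run of 27, against 56.0% for FIT1 and FIT2 and 53.7% for FIT2 and FIT3. Of 1513 stretches of 75 bases in FIT1, the length of a read, 90 occur more than once in the genome, and none do for the other 6 genes. Repeats inside FIT1 itself were counted too, so whether its reads could be shared with another gene was not tested.

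ARN2, for triacetylfusarinine C, had a small spread within each strain, with an SD of 7.90 to 9.80% of the mean. Its signal was 531, 516 and 441 in wildtype (496 ± 48.6). In sam1Δ/sam1Δ it was 779, 744 and 867 (797 ± 63.0). The sam2Δ/sam2Δ libraries had 487, 416 and 430 (444 ± 37.4). All 3 sam1Δ/sam1Δ libraries were above the other 6, and wildtype and sam2Δ/sam2Δ overlapped.

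ARN1, for the ferrichromes, was at 697, 621 and 474 in wildtype (597 ± 114). In sam1Δ/sam1Δ it was at 703, 1031 and 1096 (944 ± 210). In sam2Δ/sam2Δ it was at 481, 520 and 573 (525 ± 46.6). The lowest sam1Δ/sam1Δ library was only just above the highest wildtype library, and wildtype and sam2Δ/sam2Δ overlapped.

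SIT1, for ferrioxamine B, had 379, 458 and 238 in wildtype (359 ± 111). The sam1Δ/sam1Δ libraries had 544, 753 and 859 (719 ± 160). The sam2Δ/sam2Δ libraries had 170, 259 and 292 (241 ± 63.4). Here too the sam1Δ/sam1Δ libraries lay above the other 6, and sam2Δ/sam2Δ replicate 1 had the lowest value of all.

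ENB1, for enterobactin, was the weakest transporter gene, with 170, 115 and 108 in wildtype (131 ± 34.2). In sam1Δ/sam1Δ it was at 167, 195 and 190 (184 ± 14.9). The sam2Δ/sam2Δ libraries had 234, 135 and 162 (177 ± 51.2). The 3 strains overlapped in every pairing, and the highest library was one of sam2Δ/sam2Δ. The coding sequences of the 4 transporters are identical at 53.6 to 61.6% of aligned bases, highest for ARN1 and ARN2, and their longest common runs of 11 to 15 bases are shorter than a read.

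**Figure D2:**
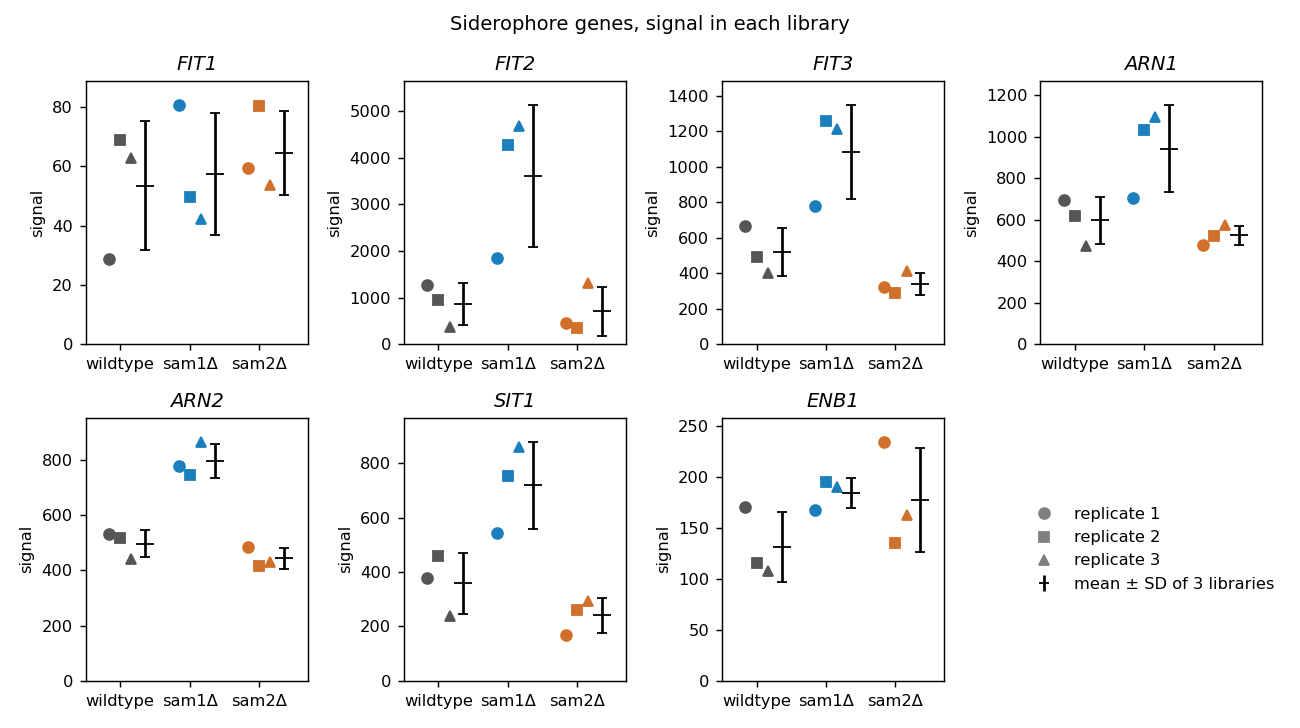
Signal of the 7 genes in each library, 1 panel per gene with its own y axis from 0. Points are the 3 libraries of wildtype, sam1Δ/sam1Δ (written sam1Δ) and sam2Δ/sam2Δ (sam2Δ), and bars are the mean ± SD of the 3. In FIT2, FIT3, ARN1, ARN2 and SIT1 the lowest sam1Δ/sam1Δ library lies above the highest library of both other strains, and in FIT1 and ENB1 the strains overlap.

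Per kb of coding sequence the order of the mean levels was the same in all 3 strains: FIT2, FIT3, ARN1, ARN2, SIT1, ENB1, FIT1. Wildtype means ran from 1865 units of signal per kb for FIT2 and 843 for FIT3 down to 72.0 for ENB1 and 33.7 for FIT1. In sam1Δ/sam1Δ FIT2 was at 7797 and FIT1 at 36.2 units per kb. In sam2Δ/sam2Δ the same genes were at 1527 and 40.7. Not all neighbours in the order were apart. The libraries of ARN1 and ARN2 overlapped in each strain, those of ARN2 and SIT1 in wildtype and sam1Δ/sam1Δ, those of SIT1 and ENB1 in sam2Δ/sam2Δ, and those of FIT2 and FIT3 in wildtype.

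Summed over the 7 genes, the wildtype libraries had a signal of 3744, 3217 and 2090. The sum was 4909, 8304 and 8947 for sam1Δ/sam1Δ, and 2216, 2045 and 3233 for sam2Δ/sam2Δ. This was 0.0190 to 0.0863% of a library. FIT2 alone made up 16.8 to 52.3% of it, least in sam2Δ/sam2Δ replicate 2 and most in sam1Δ/sam1Δ replicate 3, so the sum largely follows that gene.

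The first comparison is of sam1Δ/sam1Δ, grown with G418, against wildtype. In sam1Δ/sam1Δ 5 of the 7 genes were past both of the study's cutoffs: 0.05 for the P value before adjustment, and 0.58 for the size of the log2 fold change (log2FC, of signal plus 1). All 5 were higher: FIT2 (log2FC 2.13, SE 0.56), FIT3 (1.06, SE 0.27), SIT1 (1.03, SE 0.30), ARN2 (0.68, SE 0.14) and ARN1 (0.65, SE 0.24). As ratios of the group means these are 4.18, 2.09, 2.00, 1.61 and 1.58. ENB1 (0.51, SE 0.21) and FIT1 (0.14, SE 0.42) were not past the cutoffs. The median log2FC of the 7 genes was 0.68, and that of all 6109 genes tested was -0.01. Over all genes 0.622% were called higher, 0.524% lower and 1.15% in either direction, and 3.32% had every mutant library above every wildtype library. Nothing is read from the members' counts against these shares, since the contrast was known when the genes were chosen. With the Benjamini-Hochberg adjustment of limma over all genes no member passed 0.05, while 0.0982% of all genes did, and the lowest adjusted P among the 7 was 0.882. The call of ARN1 was lost when replicate 2 or 3 of either strain was left out (log2FC down to 0.49), and ENB1 was called without wildtype replicate 1 (0.71).

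The second comparison is of sam2Δ/sam2Δ, grown without leucine, against wildtype. Of the 7 genes only FIT3 met both cutoffs in sam2Δ/sam2Δ, and it was lower (log2FC -0.59, SE 0.25), close to the limit of 0.58 and with overlapping groups. SIT1 (-0.56, SE 0.32), FIT2 (-0.36, SE 0.62), ARN1 (-0.17, SE 0.20) and ARN2 (-0.16, SE 0.17) were below 0 and not called. ENB1 (0.42, SE 0.29) and FIT1 (0.34, SE 0.39) were above 0 and not called. The median was -0.17, against -0.01 over 6099 genes, of which 4.85% were called lower, 5% higher and 9.85% in either direction. Groups did not overlap for none of the 7 genes and for 22.3% of all genes. No member and 0.115% of all genes passed an adjusted P of 0.05, and the lowest adjusted P of limma among the 7 was 0.375. FIT3 was no longer called when replicate 1 or 2 of either strain was left out (-0.39 without wildtype replicate 1), and without wildtype replicate 3 SIT1 was called as well (-0.83). The direction of FIT2 turned with the library left out: its log2FC was 0.01 without wildtype replicate 1, 0.03 without sam2Δ/sam2Δ replicate 2 and -0.93 without sam2Δ/sam2Δ replicate 3. Leaving out wildtype replicate 1 also moved ARN1 to -0.05 and FIT1 to -0.05. In the first comparison FIT1 was at -0.25 without wildtype replicate 1 and at -0.12 without sam1Δ/sam1Δ replicate 1.

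Both comparisons use the same wildtype libraries, so they were not set against each other, and the mutants were compared directly in a fit of all 9 libraries. In sam2Δ/sam2Δ the same 5 genes were lower than in sam1Δ/sam1Δ, and their groups were apart: FIT2 (log2FC -2.49, SE 0.62), FIT3 (-1.65, SE 0.26), SIT1 (-1.59, SE 0.30), ARN2 (-0.84, SE 0.14) and ARN1 (-0.82, SE 0.21). FIT2 in sam2Δ/sam2Δ was thus at 0.196 and FIT3 at 0.314 of its sam1Δ/sam1Δ mean. FIT1 (0.20, SE 0.38) and ENB1 (-0.09, SE 0.25) overlapped between the mutants. Of the 6139 genes tested, 5.05% were called lower, 5.13% higher and 10.2% in either direction, and 13.1% had every sam2Δ/sam2Δ library below every sam1Δ/sam1Δ library. FIT3 and ARN2 also passed an adjusted P of 0.05 with limma, as did 37 genes (0.603%) in all. These 5 calls were kept with each mutant library left out in turn. Here and in the second comparison too, nothing is read from the members' counts or adjusted P values. Results of these libraries were known when the genes were chosen.

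**Figure D3:**
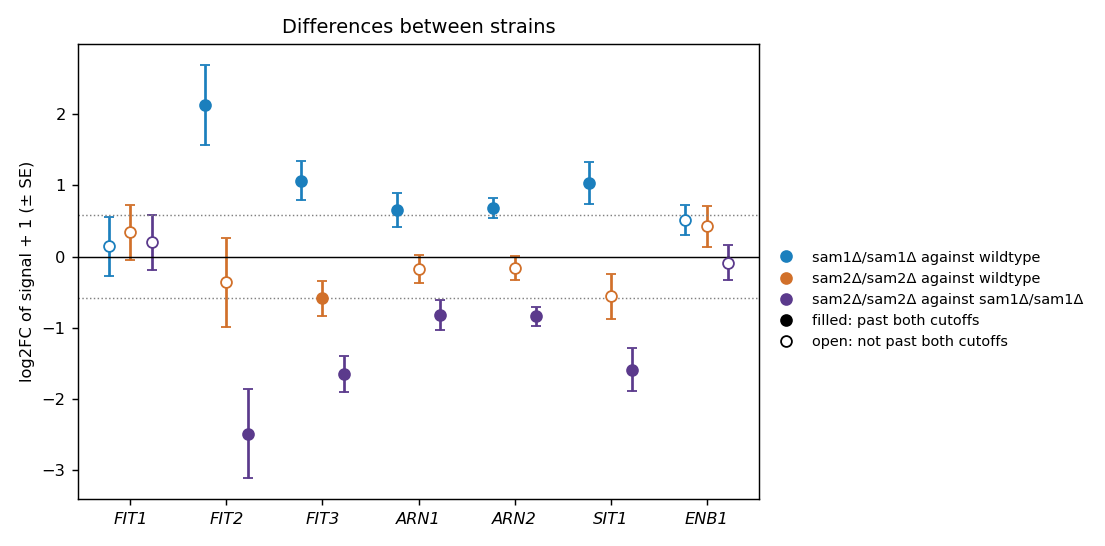
log2 fold change of signal plus 1 with its standard error (bars) for the 7 genes in the 3 comparisons, 3 libraries per strain. Filled points are past both cutoffs, and dotted lines mark a size of 0.58. FIT2, FIT3, ARN1, ARN2 and SIT1 are above 0 in sam1Δ/sam1Δ against wildtype and below 0 in sam2Δ/sam2Δ against sam1Δ/sam1Δ.

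A second list was taken of other genes of iron uptake, copper delivery, and iron storage and use, together with 8 regulators and iron-sensing genes. Of 28 such genes 27 were tested, and LSO1, with a signal of at most 8.64, was not. In sam1Δ/sam1Δ 1 was higher and none lower, with a median log2FC of 0.20. In sam2Δ/sam2Δ 1 was higher and 1 lower, with a median of -0.12, and between the mutants 1 was higher and 2 lower, with a median of -0.26. These counts are to be read beside the shares of all genes given above, 1.15%, 9.85% and 10.2% in either direction, and none of the 27 passed an adjusted P of 0.05 with limma. In sam1Δ/sam1Δ 3 of the 27 had every mutant library above every wildtype library, a share that was 3.32% over all genes. In sam2Δ/sam2Δ 2 were apart above wildtype (11.1% of all genes) and 4 below (11.2%). Between the mutants 8 had every sam2Δ/sam2Δ library below every sam1Δ/sam1Δ library (13.1% of all genes) and 1 above (12.3%). The medians over the list mix groups of genes. Its 8 regulators and iron-sensing genes had a median log2FC of 0.01 in sam1Δ/sam1Δ, -0.12 in sam2Δ/sam2Δ and -0.05 between the mutants.

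TIS11 (CTH2), an mRNA-binding protein that promotes decay of transcripts for iron-using proteins, was the one called in all 3 comparisons. Wildtype libraries had 614, 855 and 421 units of its signal, sam1Δ/sam1Δ libraries 1092, 1065 and 1127, and sam2Δ/sam2Δ libraries 307, 503 and 247. It was higher in sam1Δ/sam1Δ (log2FC 0.86, SE 0.26) and lower in sam2Δ/sam2Δ (-0.84, SE 0.35), and the direct difference was -1.70 (SE 0.31, adjusted P = 0.0543 with limma). The call in sam2Δ/sam2Δ was lost when wildtype replicate 1, wildtype replicate 2 or one of replicates 1 and 3 of the mutant was left out, and also with TMM or median-of-ratios scaling, with no filter and with limma-voom. The calls in the other comparisons were kept with each library left out.

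GRX4, a glutaredoxin that with Grx3 passes the iron signal to Aft1, went the other way. Its signal was 278, 453 and 443 for wildtype, 508, 265 and 279 for sam1Δ/sam1Δ, and 1627, 699 and 635 for sam2Δ/sam2Δ. All sam2Δ/sam2Δ libraries were above the rest, as in 11.1% of all genes against wildtype and 12.3% against sam1Δ/sam1Δ, and replicate 1 was far above the others. The log2FC was 1.23 (SE 0.40) against wildtype and 1.42 (SE 0.40) against sam1Δ/sam1Δ. Without sam2Δ/sam2Δ replicate 1 it was 0.80 against wildtype, still called.

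None of the 8 genes of the reductive route was called against wildtype in either mutant, and their median log2FC was 0.32 in sam1Δ/sam1Δ and -0.03 in sam2Δ/sam2Δ. FET3, the ferroxidase, was at 13899, 2581 and 2364 for wildtype, 4850, 12102 and 11219 for sam1Δ/sam1Δ, and 1717, 2940 and 3939 for sam2Δ/sam2Δ. Replicates of wildtype thus differed more than the strain means, and the log2FC was 0.99 (SE 0.76) and -0.70 (SE 0.71) in the mutants. Between the mutants FET3 was lower in sam2Δ/sam2Δ (-1.68, SE 0.69), a call lost when replicate 2 or 3 of sam1Δ/sam1Δ or replicate 1 or 2 of sam2Δ/sam2Δ was left out, and lost with the replicate number as a block. The reductase genes that flank the FIT2 and FIT3 pair were steadier. FRE3, on the side of FIT2 beyond the small reading frame YOR381W-A, had a log2FC of 0.39 (SE 0.23) in sam1Δ/sam1Δ and -0.01 (SE 0.25) in sam2Δ/sam2Δ. FRE5, next to FIT3, had -0.11 (SE 0.16) and -0.04 (SE 0.18).

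**Figure D4:**
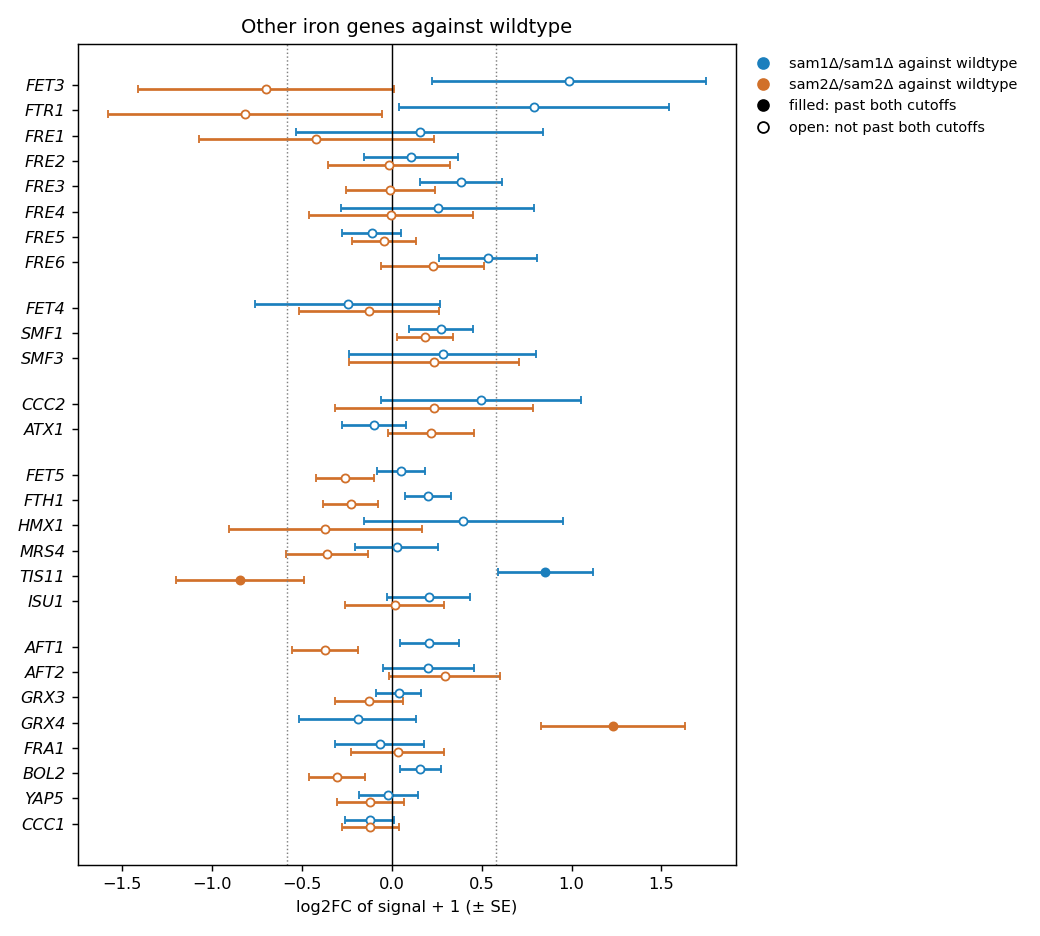
log2 fold change of signal plus 1 with its standard error for the 27 other iron genes tested, each mutant against wildtype, grouped from the top as reductive uptake, other metal uptake, copper delivery, storage and use, and regulators. Filled points are past both cutoffs: TIS11 in both mutants, with opposite signs, and GRX4 in sam2Δ/sam2Δ.

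The 5 genes FIT2, FIT3, ARN1, ARN2 and SIT1 went up and down together over the libraries. For their 10 pairs Pearson's r of log2 signal was 0.86 to 0.96 over the 9 libraries, which include the strain differences already given, and 0.24 to 0.93 for deviations from the strain means. FIT3 and ARN1 were closest over the 9 libraries (0.96, and 0.92 within strains), and FIT2 and FIT3 had 0.94 and 0.93. ENB1 had r of 0.15 to 0.46 with the 5, and of -0.11 with SIT1 to 0.71 with ARN2 within strains. ARN2 itself had 0.24 to 0.44 with the other 4 within strains. FIT1 ran against all 6 others, with r of -0.45 to -0.21, and of -0.88 to -0.31 within strains. These are descriptions over 9 libraries that share strain, medium and depth.

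The libraries of a strain also differed over the whole transcriptome. FIT3, ARN1 and FIT2 moved most with that, and FIT1 moved against it. The first component of the deviations from strain means, computed from 6105 genes without the members and the other iron genes, held 74.96% of that variance. The scores were 0.58, -0.34 and -0.24 for wildtype replicates 1 to 3, -0.37, 0.21 and 0.16 for the sam1Δ/sam1Δ replicates, and -0.24, -0.09 and 0.33 for the sam2Δ/sam2Δ replicates. With it, within strains, FIT3 had r = 0.89, ARN1 0.78, FIT2 0.76, SIT1 0.50, ENB1 0.44, ARN2 0.18 and FIT1 -0.90. Of the 8 reductive genes, FRE1, FET3, FTR1, FRE4, FRE6 and FRE3 had r of 0.98, 0.97, 0.97, 0.93, 0.91 and 0.84 with it, and FRE2 and FRE5 had -0.78 and -0.94. TIS11 had -0.20. A first component over all 9 libraries, from the same genes, held 52.4% of the variance. Its scores were 0.61, -0.28 and -0.18 for wildtype, -0.22, 0.34 and 0.30 for sam1Δ/sam1Δ, and -0.43, -0.25 and 0.12 for sam2Δ/sam2Δ. With it ARN1 had r = 0.67, FIT3 0.65, FIT2 0.65, SIT1 0.54, ARN2 0.37, ENB1 0.27 and FIT1 -0.87. How much of the strain differences lies along either component was not tested.

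**Figure D5:**
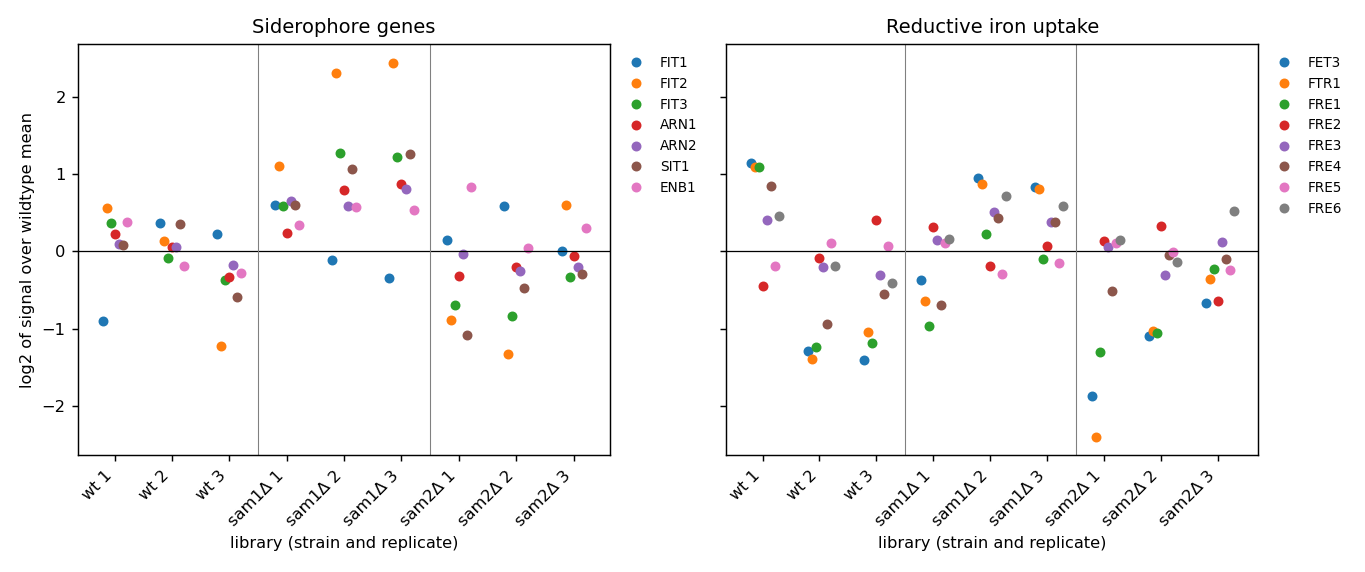
log2 of signal in each library over the wildtype mean signal, for the 7 siderophore genes (left) and the 8 reductive uptake genes (right). In the labels wt is wildtype, sam1Δ and sam2Δ are the homozygous mutants, and the digit is the replicate. On the left FIT2, FIT3, ARN1, ARN2 and SIT1 are above 0 in all 3 sam1Δ/sam1Δ libraries, and on the right FET3, FTR1 and FRE1 lie high in wildtype replicate 1 and low in wildtype replicates 2 and 3.

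The mean standardised profile of the 7 over the 9 libraries was not equally like each of them. FIT2, FIT3, ARN1, ARN2 and SIT1, themselves part of it, had r of 0.92 to 0.96 with it, ENB1 0.49 and FIT1 -0.24. Of 5093 other genes alone at their locus, the 5 nearest to that profile are given. OSW7, known for a role in the spore wall, had r = 0.91 and a signal of 535 ± 34.1 in wildtype, 657 ± 56.5 in sam1Δ/sam1Δ and 502 ± 50.5 in sam2Δ/sam2Δ. YPR195C had r = 0.90 and was at 47.5 ± 15.7, 77.6 ± 5.56 and 48.7 ± 6.42 in the same order. FTH1, an iron transporter of the vacuole and the only one of the 5 from the list of iron genes, had r = 0.86 and was at 1554 ± 103, 1786 ± 19.2 and 1325 ± 30.3. All its sam1Δ/sam1Δ libraries were above, and all its sam2Δ/sam2Δ libraries below, those of wildtype, with log2FC of 0.20 (SE 0.13) and -0.23 (SE 0.15) that did not pass the cutoffs. ZEO1, a protein of the plasma membrane periphery, had r = 0.86 and was at 12551 ± 831, 17443 ± 1595 and 12774 ± 2391. YPL277C had r = 0.86 and was at 457 ± 86.7, 583 ± 104 and 381 ± 36.1. Within strains these 5 nearest genes had r of 0.52 to 0.89 with the profile, lowest for ZEO1 and highest for YPL277C. They are the highest of 5093 values over 9 libraries, so high values were looked for.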

How the data were processed

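Poly-A RNA from 9 samples, 3 per strain, was made into stranded TruSeq libraries. Per the labels, the authors aligned reads with TopHat2 2.0.13 to R64 and made gene values with the Cufflinks programs, Cuffnorm 2.2.1. The deposited values are a signal, estimated reads divided by a library factor: 96.7 to 98.4% of a library's values were whole multiples of its step, with a tolerance of 0.05. Strand use and the annotation release are not given in the sources used here.

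Genes that reached a signal of 10 in 3 or more libraries of a fit were tested on log2(signal + 1) with limma 3.58.1 (mean-variance trend) in R 4.3.3, with no further scaling, 6 libraries for each mutant against wildtype and 9 between the mutants. Called means past the study's cutoffs, 0.05 for the unadjusted P and 0.58 for the absolute log2FC. Benjamini-Hochberg adjusted P values are given beside. A fold of signal plus 1 understates changes of low genes. The labels do not say that replicates were grown apart, so P values measure only the spread between these samples, which may be technical. Only the fit of sam1Δ/sam1Δ against wildtype was tried on simulated data, with noise drawn separately for each gene. The real libraries share variation over many genes, so nothing is read from that trial.

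The members and gene lists were chosen with earlier results of these data known. Named are the 7 members, SAM1 and SAM2, the listed iron genes called in any comparison, the listed neighbours of FIT2 and FIT3, and the 5 genes most like the members' profile; the other FRE genes, FTR1 and LSO1 were named after their values were seen. Sequences and positions are from RefSeq R64: 5227 of 5237 genes (99.81%) alone at their locus had the table's start and end. Python 3.11.15 and Biopython 1.88 were used. Alternatives were other scalings (TMM, median of ratios), filters, pseudocounts, samples in the fit, limma-voom, a replicate block, leaving out each library, and, added after seeing the data, log2 ratios of group means.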

Additional observations from a re-analysis of the deposited data

How the results depend on the processing

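Of 336 alternative log2FC values of the members, 6 had the opposite sign, all of genes not called (FIT1, FIT2 and ENB1) with 1 library left out. All 336 lay within 1 SD of the reported value, the SD between libraries estimated in the fit, which is wide for FIT1 and FIT2. Leaving out 1 of 3 libraries can hardly move a group mean further than that. The replicate block and the choice of strains in the fit cannot change a log2FC here. Nothing is therefore read from this count. In sam2Δ/sam2Δ FIT2 ranged from -0.93 to 0.03 and ARN1 from -0.33 to -0.02. Counts of calls depended on the threshold. At an adjusted P of 0.05 the genes called fell from 70 to 6 in sam1Δ/sam1Δ, from 601 to 7 in sam2Δ/sam2Δ and from 625 to 37 between the mutants, and members called from 5 to 0, from 1 to 0 and from 5 to 2. With 1 library left out the genes called ranged from 41 (without sam1Δ/sam1Δ replicate 3) to 355 (without wildtype replicate 1) in sam1Δ/sam1Δ, and were 116 without sam1Δ/sam1Δ replicate 1. They ranged from 412 to 749 in sam2Δ/sam2Δ and from 442 to 812 between the mutants, and members called from 4 to 6, from 0 to 2 and 5 throughout. FIT3 in sam2Δ/sam2Δ, the 1 member called there, was lost (0 members) with TMM scaling, with no filter, with limma-voom and with the replicate block. Limma-voom moved the median log2FC of all genes to 0.09, 0.15 and 0.05 and the split of higher and lower calls from 38 and 32 to 66 and 25, from 305 and 296 to 543 and 178, and from 315 and 310 to 401 and 251, and it added ENB1 in sam1Δ/sam1Δ. Limma-voom scales each library to its total, 9.38 to 11.9 M units of signal, and the main fits do not. The causes were not tested.

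Replicate numbers did not pair the samples: deviations of the 9 same-number pairs correlated at -0.85 to 0.69, over 0.1 in 3, and 1 library correlated best with its own number. With the replicate block the genes called were 51, 389 and 523, and ARN1 was lost in sam1Δ/sam1Δ, leaving 4 members. A quasi-likelihood count test had been planned only if the deposited values were raw counts. It was not run, because the values are estimated reads divided by a library factor. Depth limits FIT1 most, at 37 to 112 reads.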
